A study of Mus musculus with 10 samples.

Results

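The genes described here restrain mTORC1, the growth kinase complex on the lysosome, or encode translation repressors that it controls. They are read in mouse hippocampal neuron cultures under endoplasmic reticulum (ER) stress. They are 10 genes chosen by symbol among the 48709 genes listed, which include genes without any count. The members are the sestrins Sesn1, Sesn2 and Sesn3, the paralogs Ddit4 and Ddit4l, and the translation repressors Eif4ebp1 and Eif4ebp2. The others are Depdc5, Nprl2 and Nprl3, which together form the GATOR1 complex. All 10 passed the filter on low counts. Primary hippocampal neurons at 10 days in vitro were exposed for 6 h to 2 ug/mL of tunicamycin or to DMSO, its solvent, and their polyadenylated RNA was sequenced in 6 tunicamycin and 4 DMSO libraries. Tunicamycin blocks N-linked glycosylation, so that new glycoproteins misfold in the ER. The comparison asks how ER stress changes the transcripts of these cultures. Whether the replicates were separate cultures is not in the labels, so every p-value reflects only how these libraries vary, and that variation may be technical.

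mTORC1 promotes protein synthesis when amino acids and growth factors are plentiful. Amino acids act through the Rag GTPases on the lysosome. GATOR1 switches RagA and RagB off, GATOR2 opposes GATOR1, and sestrins hold GATOR2 back. Sesn2 does so when leucine is scarce. Growth factors act through the small GTPase Rheb, which the TSC complex switches off, and Ddit4 (also called REDD1) acts on the TSC complex. The 4E-BPs lie downstream: unless mTORC1 phosphorylates them, they bind the cap-binding protein eIF4E and hold back translation. Sesn2, Ddit4 and Eif4ebp1 are known targets of ATF4, the transcription factor of the integrated stress response. Sesn1 is known as a p53 target and Sesn3 as a FoxO target. These factors are not the only ones known to act on each gene. In neurons, mTORC1 is known for its part in synaptic plasticity, and GATOR1 genes for their link to focal epilepsy.

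The start-site sequences of the paralogs are shown so that members that moved in opposite directions can be compared. They are from RefSeq on GRCm38.p6 (mm10), whose promoter table held 9 of the 10 members, all but Eif4ebp1. Each is the stretch of at most 120 bases nearest the RefSeq start that lies outside every exon of GENCODE M21, in the direction of the gene. Capitals mark CCAAT boxes (CCAAT, or ATTGG on the other strand) and GC boxes (GGGCGG, or its reverse complement).
Sesn2, chr4:132510502-132510621, minus strand: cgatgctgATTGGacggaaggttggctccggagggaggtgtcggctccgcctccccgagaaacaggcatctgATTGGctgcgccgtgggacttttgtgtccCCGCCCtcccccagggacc
Sesn1, chr10:41887319-41887438, plus strand: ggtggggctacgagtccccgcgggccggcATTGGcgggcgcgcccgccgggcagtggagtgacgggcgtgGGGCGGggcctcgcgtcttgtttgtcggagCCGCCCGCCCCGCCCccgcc
Sesn3, chr9:14276181-14276300, plus strand: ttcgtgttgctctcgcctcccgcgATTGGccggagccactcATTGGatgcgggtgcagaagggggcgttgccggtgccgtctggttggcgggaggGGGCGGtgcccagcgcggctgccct
Ddit4, chr10:59951835-59951954, minus strand: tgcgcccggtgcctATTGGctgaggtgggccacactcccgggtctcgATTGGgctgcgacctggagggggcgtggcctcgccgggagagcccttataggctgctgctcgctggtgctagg
Ddit4l, chr3:137623552-137623671, plus strand: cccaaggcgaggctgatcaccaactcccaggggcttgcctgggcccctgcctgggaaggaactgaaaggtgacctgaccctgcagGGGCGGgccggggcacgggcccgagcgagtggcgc
Eif4ebp2, chr10:61452670-61452789, minus strand: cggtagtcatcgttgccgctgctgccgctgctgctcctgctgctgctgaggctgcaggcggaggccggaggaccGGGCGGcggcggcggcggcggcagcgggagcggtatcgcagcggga

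The motifs were searched on both strands of the whole windows, 250 bases before to 50 after each RefSeq start. A CCAAT box was present in 4 of the 9 members (Sesn1, Sesn2, Sesn3 and Ddit4) and in 37.4% of all 32544 promoter windows. A GC box was present in 8 of the 9, all but Nprl2, and in 35.9% of windows. A member that rose strongly, Sesn2, and a member that fell, Sesn3, thus both carry CCAAT and GC boxes. No window of a member held the C/EBP-ATF response element TGATGNAA (3.91% of all windows), the unfolded protein response element TGACGTGG (0.682%), the cyclic AMP response element TGACGTCA (1.80%) or the ER stress element (CCAAT, 9 bases of any kind, CCACG; 0.12%). The FoxO element GTAAACA (3.66% of windows) occurred once, on the opposite strand from base 23 after the upstream RefSeq start of Sesn1. These matches and absences describe the windows only.

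Among the members, the sestrins, the Ddit4 pair and the 4E-BPs each split, with 1 paralog higher and the others lower, while no GATOR1 gene rose. Sesn2, Ddit4 and Eif4ebp1 rose with tunicamycin. Sesn1, Sesn3, Ddit4l, Eif4ebp2, Depdc5 and Nprl2 fell. Nprl3 did not pass the test. The call required an adjusted p under 0.05 in edgeR's quasi-likelihood test over 15660 genes. The 3 members called higher compare with 31.8% of all genes called higher, the 6 called lower with 32.5% called lower, and the 9 called in all with 64.3%. For the same 9 members the libraries of both groups did not overlap in counts per 1000000 (CPM), with all tunicamycin libraries above in 3 and below in 6. Among all genes 50.9% had no overlap, 27.0% with tunicamycin above and 23.9% with tunicamycin below. The rises of Sesn2 and Eif4ebp1, at log2 2.24 and 2.32, were among the largest of the data set: only 78 genes rose by at least log2 2. The falls were smaller. The median log2 fold change of the 10 members was -0.23, beside -0.02 for all genes tested. The plot of responses shows these values for all libraries and for each sequencing lane.

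**Figure D1:**
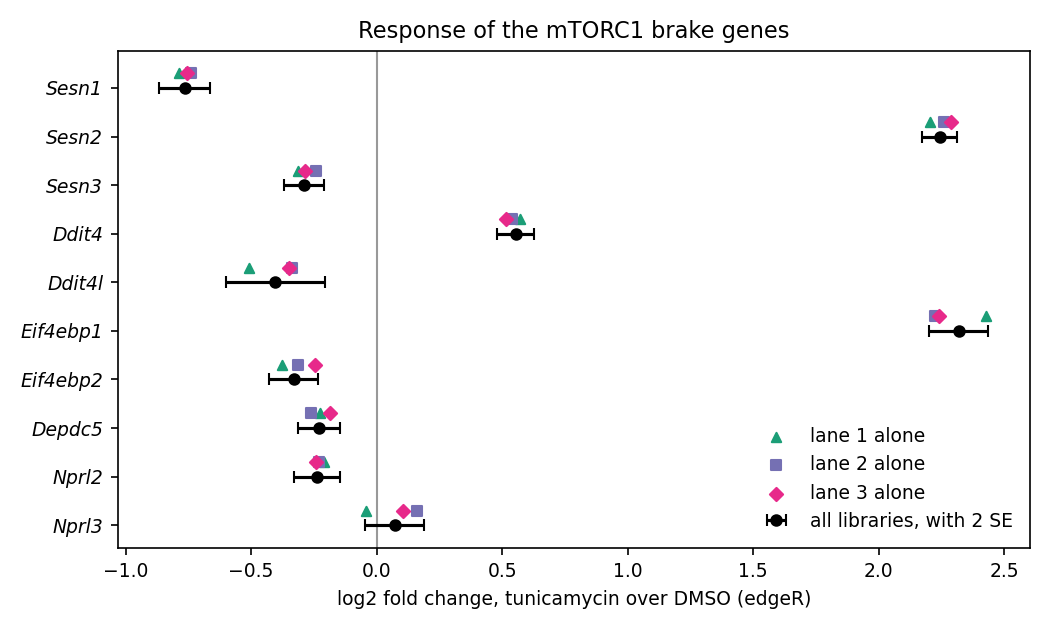
Log2 fold change of each member, tunicamycin over DMSO, from edgeR. Black points are the fit on all 10 libraries with bars of 2 SE, and coloured symbols are fits on lane 1, 2 or 3 alone. Eif4ebp1 (2.32), Sesn2 (2.24) and Ddit4 (0.55) lie to the right of 0 in every lane, and Nprl3 lies on both sides of 0.

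The depth was 21055289 to 29234887 counts per library. Any 2 replicates differed beyond sampling noise, with a chi-square of at least 2.19 per degree of freedom. Lanes are as named in the deposited file names: lane 1 held DMSO replicates 1 and 2, lane 2 DMSO replicate 3 and lane 3 DMSO replicate 4, each with 2 tunicamycin libraries. Neuronal markers were present, Snap25 at 739 CPM and Map2 at 2355 CPM with DMSO, and so were astrocyte markers, among them Slc1a3 at 867 CPM. Of 7 neuronal markers 6 fell, and their summed level was 5106 to 5649 CPM with DMSO and 4330 to 4589 CPM with tunicamycin. All 7 astrocyte markers fell, from a sum of 2716 to 3062 CPM to a sum of 1921 to 2143 CPM. All 7 markers of dividing cells fell (94.3 to 118 CPM, then 59.3 to 70.5 CPM). Of 7 tested microglia markers 5 fell (15.9 to 19.9 CPM, then 11.6 to 14.1 CPM), and of 4 oligodendrocyte precursor markers 3 fell (145 to 199 CPM, then 86.2 to 110 CPM). Of 6 markers of fibroblasts and mural cells 2 fell and none rose (114 to 200 CPM, then 86.2 to 149 CPM). Oligodendrocyte markers summed to 40.7 to 48.1 CPM and then 34.0 to 36.9 CPM (1 of 4 tested rose and 1 fell). Endothelial markers summed to 1.15 to 1.96 CPM and then 2.28 to 3.40 CPM (1 of 3 tested rose). No marker was at 0 in every library. These are whole cultures, in which fewer cells of a type and less RNA per cell cannot be told apart, and the part of these shifts in the changes of the brakes was not tested.

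Among the sestrins, Sesn2 rose and its paralogs fell. Sesn2, a leucine-binding inhibitor of GATOR2 (ENSMUSG00000028893, chromosome 4, 132492032 to 132510501, GRCm38), was at 46.1, 44.0, 45.1 and 43.3 CPM in DMSO replicates 1 to 4. With tunicamycin it ranged from 202 to 219 CPM, with a median of 212 CPM. The groups lay far apart, with the lowest tunicamycin library well above every DMSO library. It rose 4.73-fold, by log2 2.24 ± 0.04 (SE, edgeR adjusted p = 4.4e-22). By size of change in either direction it ranked 69 among all tested genes.

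Sesn1, known as a p53 target (ENSMUSG00000038332, chromosome 10, 41809935 to 41908424), moved the other way. Its levels were 23.02, 21.59, 21.96 and 22.26 CPM in the 4 DMSO libraries and 12.6 to 13.9 CPM with tunicamycin, with a median of 12.95 CPM. All 6 tunicamycin libraries were below all 4 DMSO libraries. It fell by 41.1%, or log2 -0.76 ± 0.05 (SE, edgeR adjusted p = 1.79e-11). It was the largest fall among the members.

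Sesn3 (ENSMUSG00000032009, chromosome 9, 14275067 to 14333101) had at least 3066 counts in each library, and more with DMSO than any other member. It was at 169, 194, 170 and 186 CPM with DMSO, a wider spread than that of its paralogs, and at 142 to 154 CPM with tunicamycin (median 148 CPM). The groups did not overlap, although the lowest DMSO libraries were close to the highest tunicamycin library. Sesn3 fell by 18.2%, or log2 -0.29 ± 0.04 (SE, edgeR adjusted p = 1.43e-06).

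The differences in response between members of a family or complex were tested on the log2 ratio of both genes within each library, a value that does not depend on library scaling, with a two-sided exact permutation test over all 210 assignments of the libraries to both groups. There were 8 such pairs, and p-values were adjusted over them. The smallest p that this design gives is 0.00476. The ratio of Sesn2 to Sesn3 rose by log2 2.53 ± 0.06 (SE), from -2.01 with DMSO to 0.52 with tunicamycin (exact permutation p = 0.00476, adjusted p = 0.00762), and was higher in 6 of 6 tunicamycin libraries than in any DMSO library. Sesn2 thus had fewer counts than Sesn3 with DMSO and more with tunicamycin. The ratio of Sesn1 to Sesn2 fell by 3.005 ± 0.032 on the log2 scale and that of Sesn1 to Sesn3 by 0.48 ± 0.06 on the log2 scale, each with the same exact permutation p and adjusted p. Sesn1 therefore fell more than Sesn3.

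Levels of different genes are comparable only per length, so CPM was divided by the kilobases of exonic sequence of each gene in GENCODE M21 (RPKM). The summed sestrin level was 30.2 ± 0.494 RPKM (SD, n = 4) with DMSO and 74.1 ± 1.85 RPKM (SD, n = 6) with tunicamycin. Sesn2 made up 42.6 ± 1.59% of this sum with DMSO and 82.5 ± 0.608% with tunicamycin. The share of Sesn1 went from 18.5 ± 0.664% to 4.46 ± 0.156%, and that of Sesn3 from 39.0 ± 2.14% to 13.1 ± 0.555%. Sesn3 has 15269 exonic bases in all but 9125 in its longest transcript. With longest transcripts, Sesn3 rather than Sesn2 held the largest share with DMSO (51.3% against 33.5%), and Sesn2 still held 75.6% with tunicamycin.

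**Figure D2:**
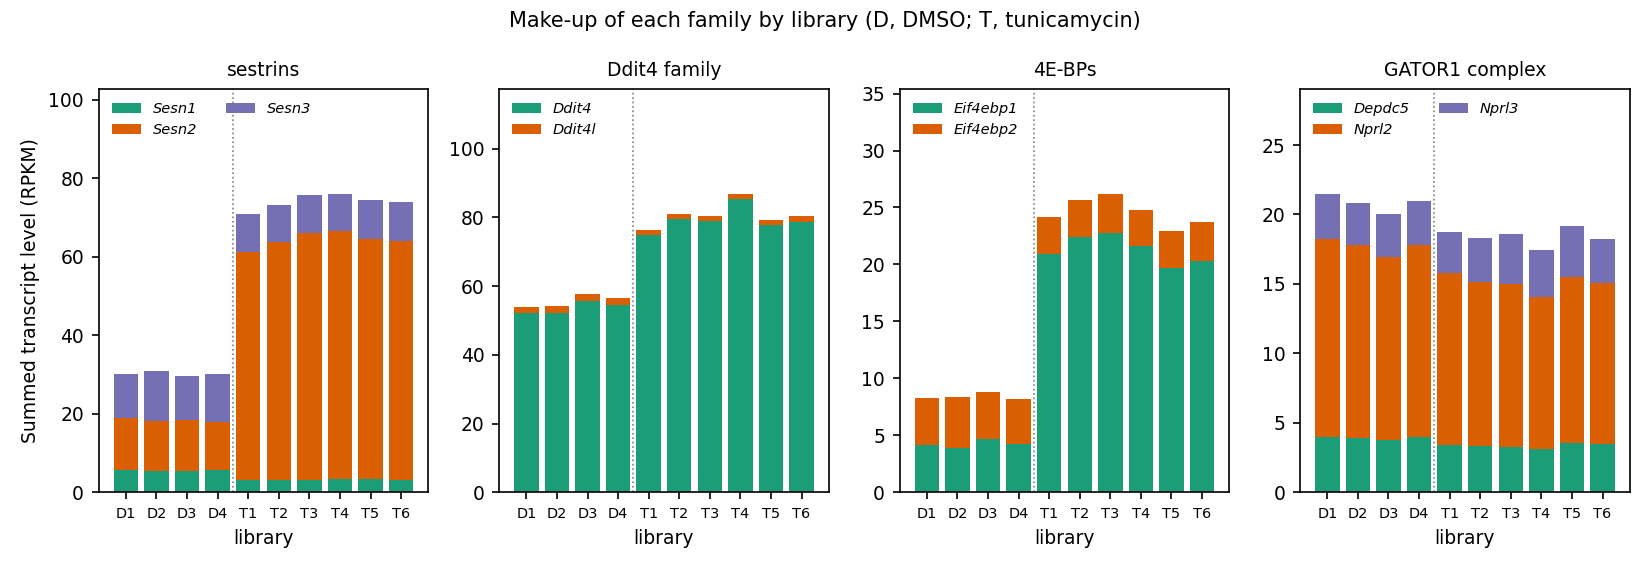
Summed level of the members of each family in RPKM (linear axis from 0) in every library, with the members stacked in colour. DMSO libraries D1 to D4 are left of the dotted line and tunicamycin libraries T1 to T6 right of it. Sesn2 fills 82.5% of the sestrin bar with tunicamycin, Eif4ebp1 86.5% of the 4E-BP bar, and the GATOR1 bar is lower by a small amount.

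Ddit4 and its paralog Ddit4l also separated. Ddit4, which brakes mTORC1 through the TSC complex and is known to be induced by hypoxia, glucocorticoids and ER stress (ENSMUSG00000020108, chromosome 10, 59949669 to 59951834), was at 91.5, 91.6, 97.8 and 95.7 CPM with DMSO. With tunicamycin it ranged from 131 to 150 CPM, with a median of 138 CPM. Every tunicamycin library was above every DMSO library. The log2 fold change of 0.55 ± 0.04 (SE, edgeR adjusted p = 1.86e-11), 1.47-fold, was small beside those of Sesn2 and Eif4ebp1. Per length it was the most abundant of the 10 genes in both groups, at 53.6 ± 1.77 RPKM (SD, n = 4) and 79.2 ± 3.41 RPKM (SD, n = 6).

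Ddit4l, a less studied relative of Ddit4 (ENSMUSG00000046818, chromosome 3, 137621612 to 137628333), was the least abundant member, with 94 to 163 counts per library. Its levels were 5.59, 6.03, 5.86 and 5.62 CPM with DMSO and 3.70 to 5.03 CPM with tunicamycin (median 4.46 CPM). No tunicamycin library reached a DMSO library, but the tunicamycin libraries were spread widely. Ddit4l fell by 24.4%, or log2 -0.40 ± 0.10 (SE, edgeR adjusted p = 0.00106). In lane 2 or lane 3 alone, each with 1 DMSO library, Ddit4l was not called (log2 -0.34 and -0.35, edgeR adjusted p = 0.136 and 0.0922). The ratio of Ddit4 to Ddit4l rose by log2 0.96 ± 0.10 (SE, exact permutation p = 0.00476, adjusted p = 0.00762), higher in 6 of 6 tunicamycin libraries. Because Ddit4l held only 3.56 ± 0.173% of the family level with DMSO, the sum followed Ddit4 and went from 55.6 ± 1.77 to 80.7 ± 3.49 RPKM.

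Of the translation repressors, Eif4ebp1 had the largest rise of the 10 genes. Eif4ebp1 (ENSMUSG00000031490, chromosome 8, 27260329 to 27276674) encodes 4E-BP1, which binds eIF4E when mTORC1 does not phosphorylate it. Its levels were 9.19, 8.62, 10.3 and 9.25 CPM with DMSO and 43.2 to 50.0 CPM with tunicamycin, with a median of 46.7 CPM. The groups were far apart, and the libraries of each group close together. Eif4ebp1 rose 4.99-fold, by log2 2.32 ± 0.06 (SE, edgeR adjusted p = 1e-18). In a ranking of all tested genes by size of change it was at 59.

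Eif4ebp2 encodes 4E-BP2, the form known as the main 4E-BP protein of the brain (ENSMUSG00000020091, chromosome 10, 61428491 to 61452661). It was at 23.7, 25.7, 23.8 and 22.8 CPM with DMSO and at 18.7 to 20.1 CPM with tunicamycin (median 19.0 CPM), with no overlap. Eif4ebp2 fell by 20.5%, or log2 -0.33 ± 0.05 (SE, edgeR adjusted p = 3.43e-06). The ratio of Eif4ebp1 to Eif4ebp2 rose by log2 2.64 ± 0.07 (SE, exact permutation p = 0.00476, adjusted p = 0.00762) and went from -1.36 with DMSO to 1.28 with tunicamycin. It was higher in 6 of 6 tunicamycin libraries.

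Per length, Eif4ebp1 and Eif4ebp2 were alike with DMSO, at 4.25 ± 0.317 and 4.15 ± 0.208 RPKM (SD, n = 4), and their libraries overlapped. With tunicamycin they were at 21.3 ± 1.201 and 3.32 ± 0.0912 RPKM (SD, n = 6). Eif4ebp1 thereby went from 50.6 ± 2.68% to 86.5 ± 0.665% of the summed level of these 2 genes. No other 4E-BP gene was examined, so the shares and sums are not those of the whole family. Their sum went from 8.40 ± 0.281 to 24.6 ± 1.23 RPKM. Eif4e, which encodes their binding partner, rose by log2 0.25 ± 0.04 (SE, edgeR adjusted p = 5.75e-06), from 10.1 ± 0.215 to 12.1 ± 0.564 RPKM. The ratio of summed Eif4ebp1 and Eif4ebp2 to Eif4e transcripts was 0.803 to 0.866 in the DMSO libraries and 1.92 to 2.16 in the tunicamycin libraries. Its group mean rose 2.45-fold. Its absolute size depends on the exonic lengths used, and it was not computed with longest transcripts.

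The GATOR1 genes changed little. Depdc5 (ENSMUSG00000037426, chromosome 5, 32863701 to 32994236) encodes the subunit that contacts the Rag GTPases and is known for its link to focal epilepsy. It was at 47.2, 45.9, 44.2 and 46.6 CPM with DMSO and at 36.4 to 41.7 CPM with tunicamycin (median 39.6 CPM), with no overlap. Depdc5 fell by 14.8% (log2 -0.23 ± 0.04, SE, edgeR adjusted p = 5.74e-05). Nprl2, which carries the catalytic residue of the complex (ENSMUSG00000010057, chromosome 9, 107542226 to 107545706), was at 28.6, 28.0, 26.5 and 27.9 CPM with DMSO and 22.1 to 25.0 CPM with tunicamycin (median 23.7 CPM), again with no overlap. It fell by 15.2% (log2 -0.24 ± 0.05, SE, edgeR adjusted p = 0.000109). Changes of this size were common: 4776 genes had a log2 fold change of -0.2 or lower.

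Nprl3, the partner of Nprl2 (ENSMUSG00000020289, chromosome 11, 32225628 to 32267707), was the member that did not pass. It was at 24.8, 22.8, 23.4 and 23.6 CPM with DMSO and at 22.1 to 27.5 CPM with tunicamycin (median 24.7 CPM), and the groups overlapped. The difference was log2 0.07 ± 0.06 (SE, edgeR adjusted p = 0.29), and 2 SE on either side reach from -0.04 to 0.19. In lanes 1, 2 and 3 alone it was -0.04, 0.16 and 0.10. Exons of Mpg on the opposite strand overlap 17.7% of its exonic bases, and the library kit does not mark strand, so its counts are uncertain. Mpg itself was at 6.04 CPM with DMSO and 5.67 CPM with tunicamycin and did not pass (log2 -0.10, edgeR adjusted p = 0.403).

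Within GATOR1, the ratio of Depdc5 to Nprl2 was 0.73 on the log2 scale in both groups and differed by 0.005 ± 0.025 (SE, exact permutation p = 0.843, adjusted p = 0.843). The ratio of Depdc5 to Nprl3 fell by 0.30 ± 0.08 on the log2 scale and that of Nprl2 to Nprl3 by 0.31 ± 0.08 on the log2 scale (each exact permutation p = 0.0143, adjusted p = 0.0163), and both were lower in 6 of 6 tunicamycin libraries. In lane 1 alone these differences were -0.18 and -0.16. The summed GATOR1 level went from 20.8 ± 0.611 to 18.4 ± 0.570 RPKM.

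In the order of levels per length with DMSO, Ddit4 stood alone at the top and was followed by Nprl2 (13.8 ± 0.438 RPKM), Sesn2 (12.8 ± 0.353) and Sesn3 (11.8 ± 0.808), neighbours whose libraries overlapped. Sesn1 (5.58 ± 0.153 RPKM) stood apart on both sides. Eif4ebp1, Eif4ebp2 and Depdc5 (3.91 ± 0.111 RPKM) again overlapped from each to the next, above Nprl3 (3.12 ± 0.111) and Ddit4l (1.98 ± 0.0706). With tunicamycin the order was Ddit4, Sesn2 (61.1 ± 1.85 RPKM), Eif4ebp1, Nprl2 (11.8 ± 0.458) and Sesn3 (9.69 ± 0.299), each apart from the next. Depdc5, Eif4ebp2, Sesn1 and Nprl3 followed between 3.30 and 3.34 RPKM with overlapping libraries. Ddit4l remained last at 1.51 ± 0.196 RPKM. Eif4ebp1 moved from the sixth place to the third. With longest transcripts Sesn3 (19.7 RPKM) stood above Nprl2 and Sesn2 with DMSO, and Nprl3 (6.70 RPKM) above Sesn1. With tunicamycin the longest transcripts put Nprl3 at 7.08 RPKM and Depdc5 at 4.79 RPKM, each apart from its neighbours. The plot of levels shows each library.

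**Figure D3:**
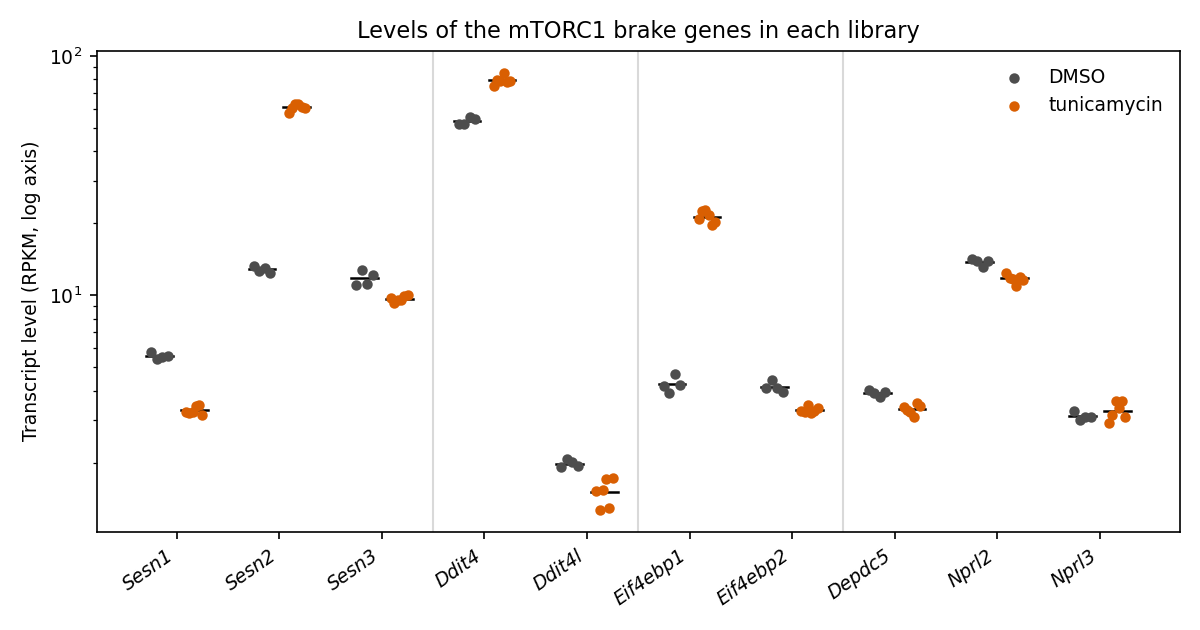
Level of each member in RPKM on a log axis, 1 point per library (4 DMSO in grey, 6 tunicamycin in orange) with the group mean as a bar. Sesn2 goes from 12.8 to 61.1 RPKM and Eif4ebp1 from 4.25 to 21.3 RPKM, the other members move far less, and the groups overlap for Nprl3.

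The authors' deposited table of the same comparison lists 9 of the 10 members, all but Nprl3, with the same directions. Its log2 fold changes are 2.24 for Sesn2, 2.31 for Eif4ebp1 and 0.55 for Ddit4. For the members that fell, the authors' deposited table gives -0.77 for Sesn1, -0.41 for Ddit4l, -0.34 for Eif4ebp2, -0.30 for Sesn3, and -0.24 for both Depdc5 and Nprl2.

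The genes around the brakes moved in both directions, and lists of them show where. GATOR2, which opposes GATOR1, was higher in 4 of 5 genes (median log2 0.32): Mios rose by 0.46, Seh1l by 0.41, Wdr24 by 0.32 and Wdr59 by 0.13 (edgeR), while Sec13, which is also a coat protein of ER export, was at 0.02 and did not pass. Wdr59 did not pass in lanes 2 and 3 alone. Under upper-quartile scaling Wdr59 no longer passed (log2 0.02) and Sec13 was called lower (log2 -0.10). In KICSTOR, which tethers GATOR1 to the lysosome, Itfg2 rose by log2 0.75 and Kptn fell (log2 -0.16). Kptn was not called by DESeq2, without a filter on low counts or in any lane alone.

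Of 13 genes of the Rag GTPases, Ragulator and folliculin 4 rose and 6 fell (median -0.02). Under upper-quartile scaling 3 rose and 7 fell (median -0.13). Rragd, a Rag GTPase (log2 -0.62), and Lamtor4, a Ragulator subunit (log2 -0.45), fell, and Fnip1 of the same list rose (log2 0.62). Among the other amino acid sensors, the arginine sensors Castor2 (log2 -0.55, from 198 to 136 CPM) and Castor1 (log2 -1.01, from 1.26 to 0.643 CPM) fell, and Bmt2, the S-adenosylmethionine sensor, rose by log2 0.92, from 43.1 to 82.1 CPM. Castor1 was not called in lane 2 or lane 3 alone.

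In the mTOR complexes 7 of 9 genes rose and 2 fell (median log2 0.26). The 2 were the kinase Mtor (log2 -0.23) and Rptor (log2 -0.13), the subunit that defines mTORC1. Rptor was not called in lane 2 (-0.10) or lane 3 (-0.06) alone. The inhibitory subunits Deptor and Akt1s1 rose, Deptor from 9.78 to 17.4 CPM (log2 0.82 ± 0.08, SE, edgeR adjusted p = 2.71e-09) and Akt1s1 from 48.8 to 63.9 CPM (log2 0.38). Mlst8 (log2 0.26) rose too, as did the mTORC2 subunits Rictor (0.23), Mapkap1 (0.12), Prr5 (0.26) and Prr5l (0.40). Rictor and Mapkap1 did not pass under upper-quartile scaling, Mapkap1 passed in no lane alone, Prr5 did not pass in lanes 1 and 2 and Prr5l not in lanes 1 and 3. In the TSC complex Tsc1 (log2 0.31) and Tsc2 (0.08) rose and Tbc1d7 (-0.17) fell, and their target Rheb rose by log2 0.33. Rhebl1 did not pass (0.11). Tsc2 was at log2 -0.03 and did not pass under upper-quartile scaling, and it did not pass without DMSO replicate 4 (0.08) or in lanes 1 and 2 alone. Tbc1d7 passed in no lane alone.

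Downstream of mTORC1, 6 of 12 substrates and outputs rose and 4 fell (median log2 0.15), among them the initiation factor Eif4b (0.36) and Maf1 (0.42), a repressor of RNA polymerase III, both higher. Of 8 genes of the cap-binding complex 3 rose and 4 fell (median -0.06). Under upper-quartile scaling the calls were 1 higher and 5 lower in the cap-binding complex (median -0.18) and 5 higher and 5 lower among the outputs (median 0.04). The helicase Eif4a2 fell from 389 to 314 CPM (log2 -0.32), and Eif4e2, a cap-binding relative of Eif4e, from 93.0 to 76.1 CPM (log2 -0.30).

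**Figure D4:**
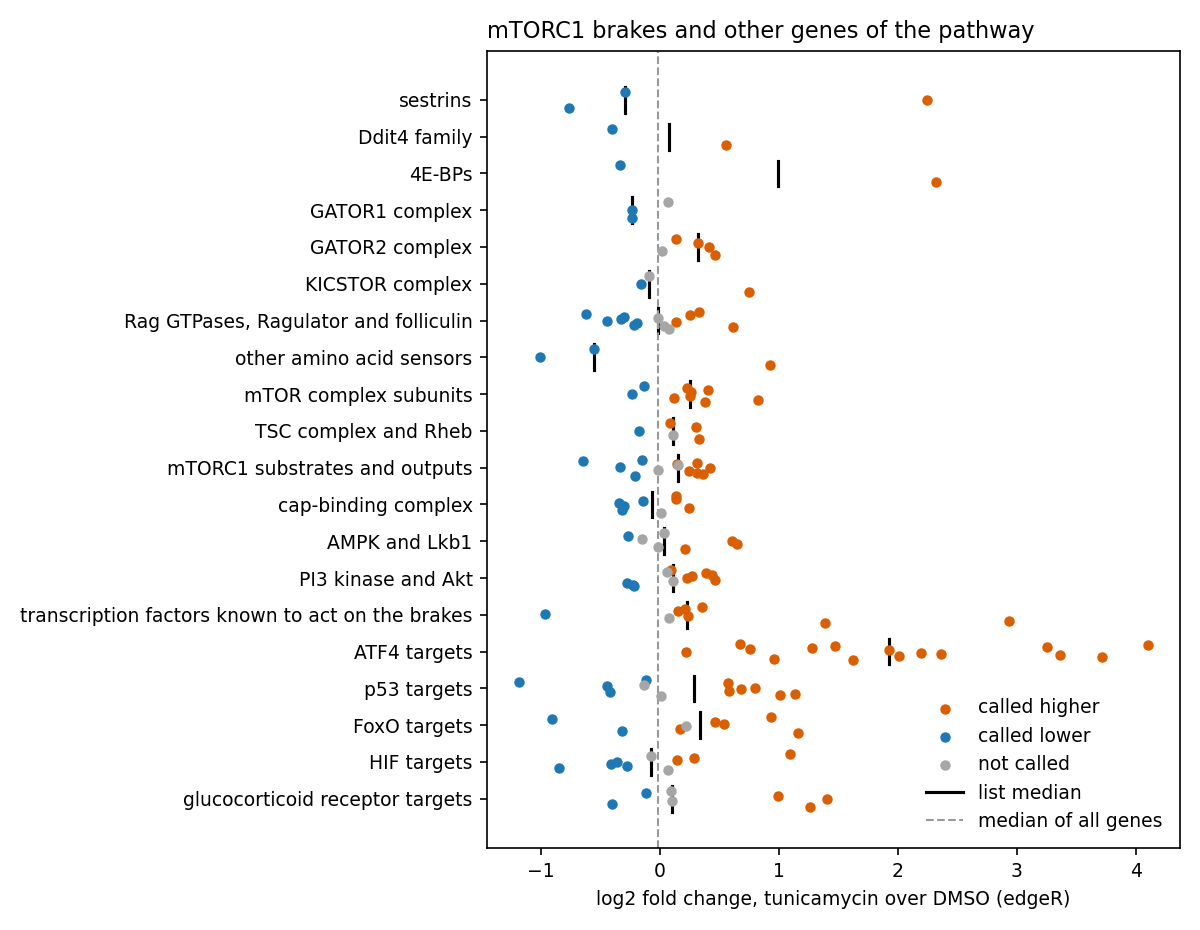
Log2 fold change, tunicamycin over DMSO (edgeR), of the 10 members by family and of every tested gene in the pathway lists. Colour gives the call, black bars the list medians and the dashed line the median of all genes (-0.02). All ATF4 targets and all GATOR2 genes lie to the right of 0 (Sec13 at -0.10 under upper-quartile scaling), and the other lists of the mTORC1 pathway hold genes on both sides of it.

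The transcription factors known to act on the brakes, and their other targets, were read from lists that hold none of the members. Atf4 rose from 226 to 594 CPM (log2 1.39 ± 0.03, SE, edgeR adjusted p = 6.48e-19) and Ddit3, which encodes CHOP, from 34.4 to 264 CPM (log2 2.93). Trp53, which encodes p53, rose by log2 0.35 and Foxo3 by log2 0.24, whereas Foxo4 fell from 6.00 to 3.08 CPM (log2 -0.97). Hif1a (0.15) and Nr3c1, the glucocorticoid receptor (0.21), rose but did not pass under upper-quartile scaling, nor Hif1a in lanes 2 and 3 alone or Nr3c1 in lane 3 alone. Foxo1 did not pass (0.08). It was called higher, among other settings, with lane as a term (log2 0.09) and without DMSO replicate 1 (0.09), DMSO replicate 2 (0.10) or tunicamycin replicate 6 (0.10).

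All 15 ATF4 targets rose (median log2 1.93), in a list that, like the others, was chosen with earlier results of these data known. They included the transcription factor Atf3 (3.72) and the mitochondrial folate enzyme Mthfd2 (2.36). Sesn2 and Eif4ebp1 lay above this median and Ddit4 (0.55) below it, with only Phgdh (0.22) at a smaller rise than Ddit4. Phgdh did not pass under upper-quartile scaling. Targets of p53 moved both ways, with 6 of 12 higher, 4 lower and a median of 0.29. Mdm2 (0.80) and Bbc3 (1.01) rose, and Trp53inp1 (-1.19) and Ccng1 (-0.42) were among those that fell. Sesn1, known as a p53 target, fell too. FoxO targets rose in 5 of 8 cases (median 0.34), among them Bcl6 (1.16) and Insr (0.54). The 2 that fell were Pik3ip1 (-0.905) and Ccng2 (-0.32), and Sesn3 fell too.

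The genes whose log2 CPM was most like that of Eif4ebp1 over the 10 libraries were Gadd45a (Pearson r = 0.9996, log2 fold change 3.23), Mthfd1l (r = 0.9994, 1.81) and Slc1a4 (r = 0.9993, 0.91). Those most like Sesn1 were Nrep (r = 0.9974, -0.55), Cspg5 (r = 0.9971, -0.67) and Sirpa (r = 0.9956, -0.49). The libraries fall into their treatment groups, so these correlations mainly describe the difference between the groups.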

How the data were processed

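Per the labels' protocols, TruSeq RNA v2 libraries were read as single ends of 50 bp. The submitters' processing notes name mm10 as build and, with no roles, STAR 2.5.2b, FastQC 0.11.5, Subread 1.5.1, DESeq2 and featureCounts. For the strand setting, the annotation release and multimapping reads, the rule is not given in the sources used here. Deposited by the authors were whole-number counts per Ensembl gene for each library, and tables of changed genes with the authors' log2 fold change and an adjusted p-value. The normalized signal in those deposited tables equalled the counts divided by 1 factor per library (relative tolerance 1e-04) for 100% of values from counts above 20, and was not used further.

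Names, positions and lengths came from GENCODE M21 (GRCm38), which matched 48349 of 48709 identifiers; the others held 0.0462% of counts. Of the list genes only Kics2 had no match. All 10 libraries were fitted with edgeR 4.0.16 in R 4.3.3 (quasi-likelihood, robust, TMM, filterByExpr), with Benjamini-Hochberg adjustment over 15660 genes. The standard error is the size of the log2 fold change divided by the square root of F. CPM uses the total of the deposited counts. Ratios of paralogs used counts plus 0.5, and likeness used log2 CPM with a prior count of 2. The code was tested on simulated data. The named genes are the members, the genes of 6 short lists (1 is not reported here), the 2 with the smallest p of each other list, and the 3 genes most like Eif4ebp1 and Sesn1. Phgdh, Eif4e, Mpg and Map2 were named besides. So were Fnip1, Trp53inp1, Ccng1, Pik3ip1, Ccng2, Fkbp5 and Tsc22d3, to show both directions in their lists. They kept their calls under upper-quartile scaling, and their other alternatives are not given. The members and lists were chosen with earlier results of these data known.

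Alternatives were DESeq2 1.42.0, upper-quartile scaling, other filters, lane or replicate number as a term, each lane alone and leaving out each library. The CCAAT, GC and TATA box searches were added after the other motifs had been searched; the TATA box (TATAAA) was in 2 of 9 members, Ddit4l and Nprl3, and in 13.6% of windows.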

Additional observations from a re-analysis of the deposited data

How the results depend on the processing

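All 9 called members kept their direction and call in all 19 alternatives, except Ddit4l, which had log2 fold changes of -0.34 and -0.35 in lanes 2 and 3 alone and was not called there; these fits have 1 DMSO library, taken to vary like the others. Leaving out any 1 library gave 2.23 to 2.26 for Sesn2, 2.28 to 2.37 for Eif4ebp1, 0.53 to 0.58 for Ddit4 and -0.78 to -0.75 for Sesn1. Upper-quartile scaling moved the median of all genes by -0.115 (3632 genes higher and 6934 lower, beside 4983 and 5082); Nprl3 was at -0.04, and Sec13 (-0.097) and Tsc2 (-0.03) reversed. With longest transcripts the DMSO level was 5.83 RPKM for Sesn1, 19.7 for Sesn3, 2.12 for Ddit4l, 4.68 for Eif4ebp1, 5.60 for Depdc5, 15.99 for Nprl2 and 6.70 for Nprl3. The ratio of Eif4ebp1 to Eif4ebp2 differed by 2.80 in lane 1 and 2.49 in lane 3, that of Depdc5 to Nprl2 by 0.055 in lane 3 and that of Nprl2 to Nprl3 by -0.16 in lane 1. The cause was not tested.

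Same-numbered libraries did not deviate together (r = -0.217, 0.009, -0.061 and -0.072 over genes), and no DMSO library correlated best with its own number. Pairing by number was thus not seen, but 4 such correlations cannot exclude it. With the replicate block edgeR called 8847 genes in place of 10065 and the same number of members in each direction. Paired by number, the ratio differences were -3.01 (Sesn1 to Sesn2), -0.46 (Sesn1 to Sesn3), 2.55 (Sesn2 to Sesn3), 0.97 (Ddit4 to Ddit4l), 2.69 (Eif4ebp1 to Eif4ebp2), -0.32 (Depdc5 to Nprl3), -0.29 (Nprl2 to Nprl3) and -0.026 (Depdc5 to Nprl2, opposite in sign to its 0.005), each at an exact p of 0.125, the smallest that 4 pairs give. Of the other named genes whose alternatives were examined, Tsc2, Hif1a and Dcn were not called with the block (edgeR adjusted p = 0.115, 0.0506 and 0.0804).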

Other observations

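The upstream kinases of the pathway were read from the same fit. Of 7 genes of AMPK and its activator Lkb1, an energy-sensing arm that restrains mTORC1, 3 rose and 1 fell (median log2 0.03), and under upper-quartile scaling 2 rose and 3 fell (median -0.08); the regulatory subunits Prkab1 (0.65) and Prkab2 (0.60) rose from 14.9 to 23.6 CPM and from 76.5 to 117 CPM. Of 11 genes of PI3 kinase and Akt, the growth factor arm, 6 rose and 3 fell (median log2 0.11), with rises of the insulin receptor substrate Irs2 (0.46) and the catalytic subunit Pik3cb (0.44).

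Ddit4 is also known as a target of hypoxia and of glucocorticoids. Of 9 tested HIF targets 3 rose and 4 fell (median log2 -0.08), and 2 and 5 under upper-quartile scaling; Vegfa, an angiogenic factor, rose from 54.8 to 117 CPM (1.09) and Egln1, a prolyl hydroxylase, fell from 58.6 to 44.3 CPM (-0.41). Of 7 glucocorticoid receptor targets 3 rose and 2 fell (median log2 0.10, and -0.01 under upper-quartile scaling). Errfi1 (1.26) and Per1 (1.41) were among those that rose, and Fkbp5 (-0.40) and Tsc22d3 (-0.12) fell. Tsc22d3 was close to the threshold (edgeR adjusted p = 0.047, beside 1.44e-07 for Fkbp5). DESeq2 called 1 of the 7 lower.

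In the cell type lists, the genes with the smallest p, beside the astrocyte marker Slc1a3 (log2 -0.83) and the neuronal marker Snap25 (-0.31), were Tubb3 (-0.92) for neurons, Aldh1l1 (-0.54) for astrocytes, Tyrobp (-1.19) and C1qc (-1.18) for microglia, Olig1 (-0.88) and Cspg4 (-0.77) for oligodendrocyte precursors, Rgs5 (-0.62) and Dcn (-0.46) for mural cells and fibroblasts, and Mcm3 (-0.89) and Mcm5 (-0.91) for dividing cells, all lower. In lane 1 alone Rgs5 (-0.03), Dcn (-0.14) and Cspg4 (-0.32) were not called, nor was Tyrobp in lane 3 alone (-0.52). Of the oligodendrocyte markers Cnp fell (-0.73) and Mog rose (0.46; not called in lane 2 alone), and of the endothelial markers Flt1 rose (1.19; not called in lane 3 alone) and Cdh5 did not pass (0.50).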
